A study of Mus musculus with 27 samples.

Results

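Hepatocyte RNA of the inbred mouse strain 129S1/SvImJ was compared with that of 8 other inbred strains. The 3 libraries that the labels assign to 129S1/SvImJ, of 27 in all, were set against the other 24, with each other strain given the same weight whatever the spread of its libraries. The study sequenced polyadenylated RNA from liver, labelled as hepatocytes, to relate genetic variation among strains to variation in gene expression. The 9 groups were 129S1/SvImJ, A/J, C57BL/6J, CAST/EiJ, DBA/2J, NOD/ShiLtJ, NZO/HlLtJ, PWK/PhJ and WSB/EiJ. Each group had 3 libraries from female mice at 12 weeks of age, and no treatment or engineered allele is named in the labels. The labels call the 3 libraries of a strain biological replicates without saying that they came from separate animals, so p-values measure the spread between these libraries, which may in part be technical.

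129S1/SvImJ belongs to the 129 family of strains, the source of many embryonic stem cell lines used to make mutant mice. With the exception of DBA/2J, the strains studied are founders of the Collaborative Cross, a panel of recombinant inbred mice. CAST/EiJ, PWK/PhJ and WSB/EiJ are wild-derived, and CAST/EiJ and PWK/PhJ come from other subspecies than most laboratory strains. Hepatocytes make most plasma proteins and metabolize drugs, steroids and bile acids, and in mice many genes for these tasks differ between strains and between the sexes.

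The libraries of 129S1/SvImJ held 27151608, 29755561 and 28728793 estimated counts, and the other 24 held 17015956 to 35078511. An estimated count need not be whole, because a read that matches several similar genes can be divided among them. Levels below are in CPM (counts-per-million), after scaling by TMM (trimmed mean of M values) normalization factors. CPM is not corrected for gene length, so levels were compared between libraries and not between genes. Alb (serum albumin), a product of hepatocytes, was at 94030 to 113996 CPM in 129S1/SvImJ and at 80416 to 266109 CPM in the other libraries. This does not tell isolated hepatocytes from whole liver, and summed markers of Kupffer cells (35.9 to 452 CPM) and endothelial cells (74.2 to 944 CPM) were detected in all libraries. Of 12 hepatocyte marker genes, Fgb and Apob were lower in 129S1/SvImJ and none was higher in the test described next, and both calls were lost without any 1 of the 3 libraries of 129S1/SvImJ.

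In 129S1/SvImJ, 1524 genes were higher and 1139 were lower than in the mean of the 8 other strains, of 14482 genes tested. These are 10.5% and 7.86% of the genes tested, or 18.4% together. Genes were called at an adjusted p under 0.05 in edgeR's quasi-likelihood test with Benjamini-Hochberg adjustment. Of the called genes, 537 were at least 2-fold higher (3.71%) and 475 at least 2-fold lower (3.28%), and the median log2 fold change over all tested genes was 0.02. The comparison averages the 8 strains on the log scale, so a strain in which a gene is nearly silent pulls that average down strongly. For 54 of the 1524 genes called higher (3.54%), the mean CPM of 129S1/SvImJ was below the plain mean of the 8 strain means. No gene called lower had the opposite order of means.

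129S1/SvImJ had the highest mean of the 9 strains in 755 of the 1524 genes called higher (49.5%) and the lowest in 632 of the 1139 called lower (55.5%). Its 3 libraries lay above all 24 others for 97 of the genes tested (0.67%), 95 of them called (0.656%), and below all 24 for 78, all of them called (0.539%). Against single strains, the number called ran from 1426 against NOD/ShiLtJ (9.85%) and 1438 against NZO/HlLtJ (9.93%) to 4148 against A/J (28.6%) and 4447 against PWK/PhJ (30.7%). It was 2116 against DBA/2J (14.6%), 3026 against C57BL/6J (20.9%), 3622 against CAST/EiJ (25%) and 3783 against WSB/EiJ (26.1%). These 8 comparisons share the 129S1/SvImJ libraries. When each other strain was set in the same way against the mean of its 8 others, 1923 genes were called for DBA/2J (13.3%), 2162 for NOD/ShiLtJ (14.9%) and 2616 for C57BL/6J (18.1%). More were called for WSB/EiJ (3581, 24.7%), A/J (3989, 27.5%), NZO/HlLtJ (4002, 27.6%), PWK/PhJ (4950, 34.2%) and CAST/EiJ (5488, 37.9%). The number called depended on single libraries: 1444 genes were called without 129S1/SvImJ replicate 1 and 1455 without replicate 2. The order of single strains moved too: 2110 against A/J without A/J replicate 3, and 1492 against C57BL/6J without C57BL/6J replicate 4. With mean Kupffer cell and endothelial marker levels as covariates, 652 were called against C57BL/6J, the fewest of the 8.

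**Figure D1:**
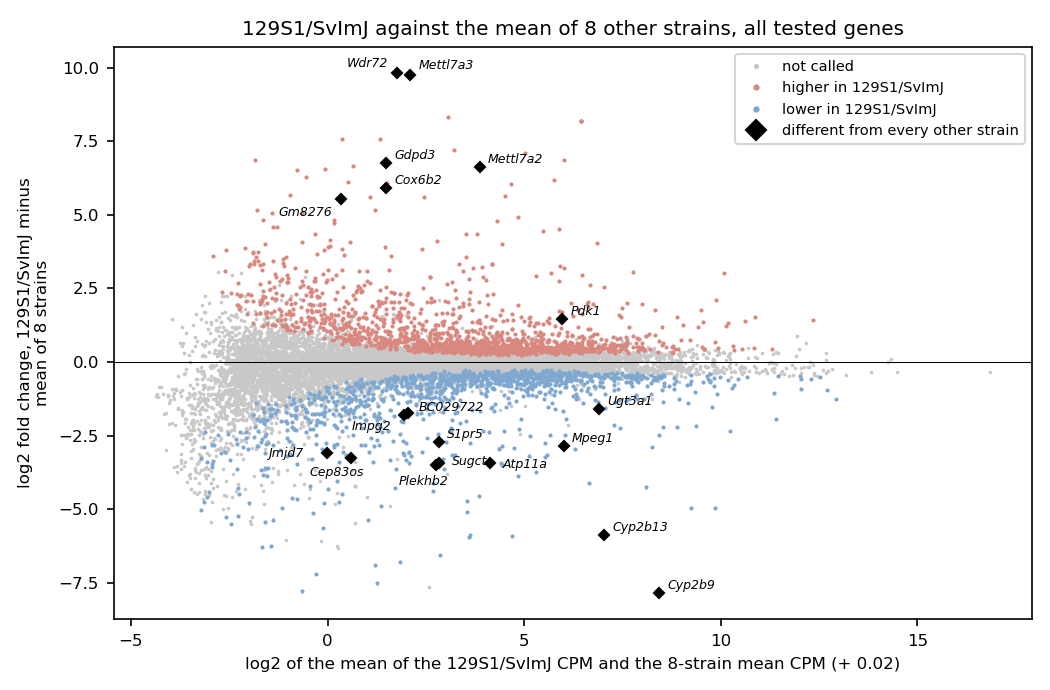
Log2 fold change of 129S1/SvImJ against the mean of the 8 other strains (y axis) by expression level, the log2 mean of the 129S1/SvImJ CPM and the 8-strain mean CPM plus 0.02 (x axis), for the 14482 tested genes. Red and blue points are genes called higher and lower, and black diamonds are the 19 genes that differed from each other strain; Cyp2b9 (-7.86) and Cyp2b13 (-5.88) are the lowest of these diamonds.

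A gene was taken as particular to 129S1/SvImJ where it differed in one direction from each of the 8 other strains. The largest of the 8 p-values was adjusted over all genes and had to be under 0.05. 19 genes met this (0.131% of those tested), 7 higher (0.0483%) and 12 lower (0.0829%). In the same test, 12 genes were particular to NOD/ShiLtJ (0.0829%), 14 to DBA/2J (0.0967%), 17 to C57BL/6J (0.117%), 20 to A/J (0.138%) and 24 to NZO/HlLtJ (0.166%), against 100 for WSB/EiJ (0.691%), 356 for PWK/PhJ (2.46%) and 491 for CAST/EiJ (3.39%). The number for 129S1/SvImJ thus lay in the range of the other classical laboratory strains. It was 11 without 129S1/SvImJ replicate 1 and 12 without replicate 3, 45 with CAST/EiJ and PWK/PhJ left out, and 7 with the mean levels of Kupffer cell and endothelial markers as covariates. With the replicate number as an added factor (a block) it was 12, with 1 higher.

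The 12 lower genes were Cyp2b9, Cyp2b13, Plekhb2, Atp11a, Sugct, Cep83os, Jmjd7, Mpeg1, S1pr5, Impg2, BC029722 and Ugt3a1. The 7 higher genes were Wdr72, Mettl7a3, Mettl7a2, Gdpd3, Cox6b2, Gm8276 and Pdk1. In all 19, none of the 3 libraries of 129S1/SvImJ overlapped any of the 24 others. The genes were chosen on these same values, so this describes them and adds no separate support. Of all tested genes, 0.67% lay above and 0.539% below all 24 others. When each library was left out in turn, the call of a difference from every strain was kept least often for Gm8276 (4 of 27 fits), S1pr5 (10 of 27) and Pdk1 (14 of 27), and in at least 21 of 27 for the other 16. With the marker covariates it was kept for Cyp2b9, Plekhb2, Atp11a, Sugct, Jmjd7, BC029722 and Mettl7a2, and lost for the other 12, which include 6 of the 7 higher genes.

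**Figure D2:**
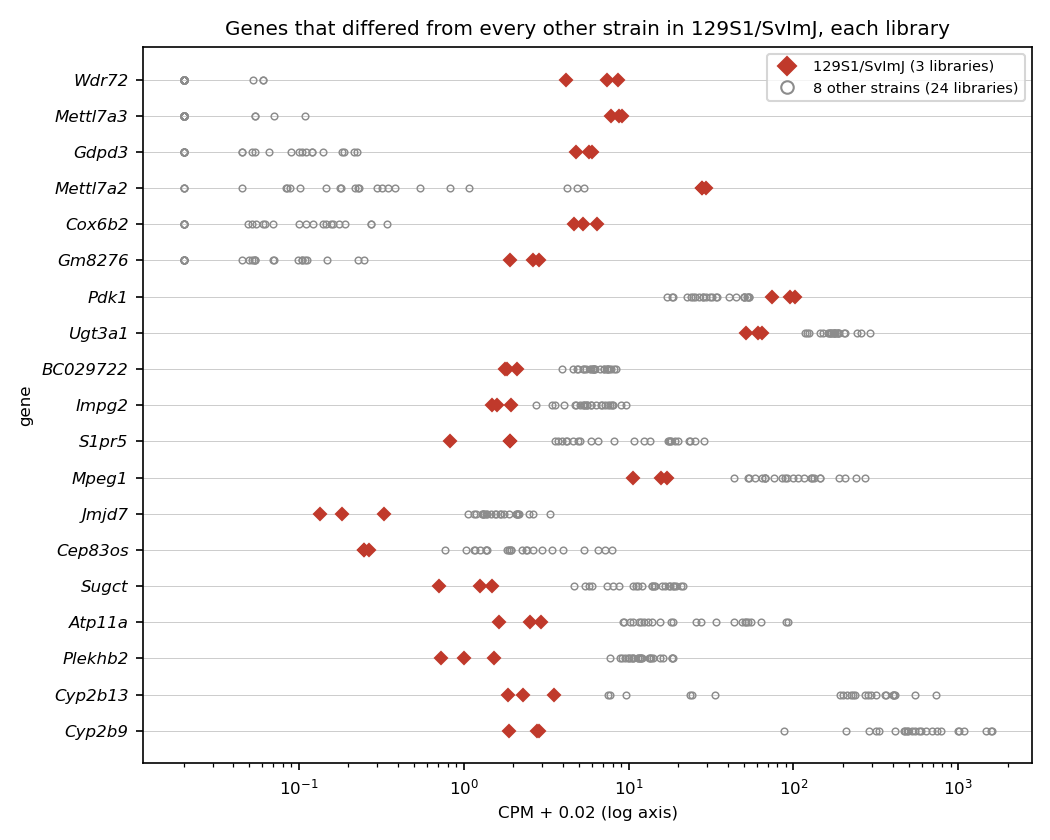
CPM plus 0.02 (x axis, log scale) in each library for the 19 genes that differed from each other strain (y axis). The genes were chosen on these same values. Red diamonds are the 3 libraries of 129S1/SvImJ and open circles the 24 libraries of the other strains; in each row the diamonds lie outside the range of the circles, from Wdr72 at the top (4.12 to 8.64 CPM against at most 0.0411) to Cyp2b9 at the bottom (1.86 to 2.86 CPM against at least 87.6).

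Of the 19 genes, 2 Cyp2b cytochromes P450 had the largest decreases. Cyp2b9 and Cyp2b13 encode female-predominant steroid and drug hydroxylases of the mouse liver, and Cyp2b10 is the family member best known for induction by drugs through the receptor CAR. Cyp2b9 was at 2.76, 2.86 and 1.86 CPM in 129S1/SvImJ and at 87.6 to 1590.2 CPM in the other libraries, with a median of 562. The 129S1/SvImJ libraries were thus far below all others, including PWK/PhJ, the next lowest strain with a mean of 194 ± 100.1 CPM (SD, n = 3). The log2 fold change was -7.86 (SE 0.37, adjusted p 9.63e-14), and the adjusted p for a difference from each strain was 8.44e-11 by the same edgeR test.

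Cyp2b13 was at 2.26, 3.52 and 1.83 CPM in 129S1/SvImJ, against 7.43 to 731 CPM with a median of 255 elsewhere. PWK/PhJ, at a mean of 8.25 CPM, and CAST/EiJ, at 27 CPM, were the nearest strains, and the other 6 had means from 226 to 531 CPM. The log2 fold change was -5.88 (SE 0.33, adjusted p 1.27e-12, edgeR). Cyp2b10 was at 51.3, 48.4 and 31.0 CPM, against 30.1 to 898 CPM with a median of 207, and its log2 fold change was -2.25 (SE 0.45, adjusted p 0.000844, edgeR). Its low values were shared: CAST/EiJ averaged 44.0 CPM and PWK/PhJ 45.8 CPM.

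The 3 genes lie on chromosome 7 on the plus strand. In GRCm38 with the GENCODE M21 annotation, Cyp2b10 spans 25897620 to 25926624, Cyp2b13 spans 26061497 to 26096197 and Cyp2b9 spans 26173411 to 26210661. The start regions of Cyp2b9 and Cyp2b13 are shown because these genes are near copies of each other. The windows from 250 bases before to 50 after the start, from RefSeq on GRCm38.p6, were identical at 298 of 300 bases (99.3%). They are the reference sequence of C57BL/6J, not that of 129S1/SvImJ. The capitals mark the differing bases, T48C and C104T, with the Cyp2b9 base first and positions counted from 1 at the first base shown. The first window is chr7:26173159-26173458 and the second chr7:26061245-26061544, both on the plus strand.
Cyp2b9: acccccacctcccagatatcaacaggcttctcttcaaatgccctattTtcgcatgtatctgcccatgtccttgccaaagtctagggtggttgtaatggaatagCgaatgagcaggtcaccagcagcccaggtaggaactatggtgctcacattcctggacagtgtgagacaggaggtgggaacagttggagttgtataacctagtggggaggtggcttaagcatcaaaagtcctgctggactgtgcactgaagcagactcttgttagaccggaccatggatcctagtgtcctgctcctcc
Cyp2b13: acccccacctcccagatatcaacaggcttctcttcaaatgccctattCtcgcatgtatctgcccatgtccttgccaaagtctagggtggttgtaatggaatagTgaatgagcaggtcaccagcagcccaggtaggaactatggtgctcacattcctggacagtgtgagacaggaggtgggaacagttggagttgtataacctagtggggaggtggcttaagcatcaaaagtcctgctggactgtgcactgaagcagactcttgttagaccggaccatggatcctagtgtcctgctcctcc

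An alignment of the Cyp2b10 window with either of these was identical in 71.7% of its columns. Non-whole counts, which can come from reads divided between similar genes, occurred in 26 libraries for Cyp2b9 and in 27 for Cyp2b13. A division of reads among the 3 genes does not alter their sum: Cyp2b9, Cyp2b13 and Cyp2b10 together came to 56.3, 54.8 and 34.7 CPM in 129S1/SvImJ and to 135.5 to 2555 CPM elsewhere. The summed level was thus also below all 24 other libraries. The motif TTCNNNGAA, which STAT proteins such as the growth hormone effector STAT5 bind, was looked for on both strands and was absent from all 3 windows. Of all 32851 RefSeq windows of this length, 8.3% hold it.

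The other lower genes had scattered roles. Plekhb2 encodes a membrane-trafficking protein of recycling endosomes. It was at 0.713, 1.52 and 0.978 CPM in 129S1/SvImJ and at 7.69 to 18.5 CPM in the other libraries, with a log2 fold change of -3.49 (SE 0.19, adjusted p 5.83e-13, edgeR). The other strains were close to each other for this gene, with means from 8.84 to 16.8 CPM.

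Atp11a encodes a flippase that moves phospholipids across the plasma membrane. It was at 1.61, 2.49 and 2.93 CPM, against 9.18 to 92.7 CPM with a median of 22.0 elsewhere. Here the other strains fell far apart, from a mean of 10.1 CPM in WSB/EiJ to 66.2 CPM in CAST/EiJ. The log2 fold change was -3.45 (SE 0.33, adjusted p 2.98e-08, edgeR). Sugct, a mitochondrial CoA transferase of glutarate breakdown, was at 1.46, 1.23 and 0.685 CPM, against 4.64 to 21.5 CPM elsewhere, with a log2 fold change of -3.42 (SE 0.26).

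Ugt3a1 encodes a glycosyltransferase that attaches sugars to small molecules. It was at 64.2, 51.7 and 61.0 CPM in 129S1/SvImJ and at 117 to 292 CPM elsewhere, with a log2 fold change of -1.59 (SE 0.15, adjusted p 2.54e-08, edgeR). All 8 other strains had means from 142 to 263 CPM. Its neighbour on chromosome 15, Ugt3a2, showed another pattern, at 385, 394 and 401 CPM against 14.0 to 721 CPM. Ugt3a2 was called higher (log2 fold change 1.20, adjusted p 9.25e-09, edgeR), but it was low in PWK/PhJ (15.3 CPM), CAST/EiJ (26.4 CPM) and WSB/EiJ (55.3 CPM) and fell to 0.17 with CAST/EiJ and PWK/PhJ left out. The counts of both Ugt3a genes were not whole in 25 libraries.

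Mpeg1 encodes perforin-2, a pore-forming protein of macrophages. It was at 10.5, 15.7 and 17.1 CPM in 129S1/SvImJ and at 43.6 to 273 CPM elsewhere, with a log2 fold change of -2.85 (SE 0.32, adjusted p 5.09e-07, edgeR). Markers of Kupffer cells, the macrophages of the liver, moved the same way: 4 of 12 were lower and none was higher, against 7.86% of all genes called lower. None of the 12 was called lower without 129S1/SvImJ replicate 1, without replicate 2 or without C57BL/6J. Their summed level was 44.7, 49.7 and 95.1 CPM in 129S1/SvImJ and 35.9 to 452 CPM elsewhere, and none of the 12 was at 0. In bulk RNA, fewer cells of a type and less RNA per cell cannot be told apart. With the mean Kupffer and endothelial marker levels as covariates, the Mpeg1 log2 fold change was -2.40 (adjusted p 2.28e-07, edgeR), but its difference from each single strain no longer passed.

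S1pr5, a receptor for sphingosine 1-phosphate, was at 0.806, 1.89 and 1.89 CPM, against 3.54 to 28.6 CPM. Impg2, a proteoglycan known from the retina, was at 1.92, 1.57 and 1.47 CPM, against 2.73 to 9.69 CPM. BC029722, a protein-coding gene without an established role, was at 1.80, 2.09 and 1.76 CPM, against 3.92 to 8.32 CPM. These are low levels, but the log2 fold changes of -2.72 (SE 0.25) for S1pr5, -1.82 (SE 0.21) for Impg2 and -1.73 (SE 0.14) for BC029722 were large against the spread.

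Cep83os adjoins another gene and Jmjd7 overlaps one, and the library kit does not mark the strand. Cep83os, a long noncoding RNA from the promoter of the centriole gene Cep83, was at 0.248, 0.229 and 0.228 CPM, against 0.752 to 7.95 CPM. Cep83 itself was higher in 129S1/SvImJ by a log2 fold change of 0.36 (adjusted p 0.0378, edgeR), the opposite direction. Jmjd7, which encodes a protein hydroxylase, was at 0.310, 0.114 and 0.163 CPM, against 1.05 to 3.33 CPM. Its counts were not whole in 25 libraries, and how reads were divided with the overlapping read-through gene Gm28042, which joins it to its neighbour Pla2g4b, is not known. Both were lower as well, Gm28042 at a mean of 0.0938 CPM against 0.900 CPM and Pla2g4b at 0.0207 CPM against 0.830 CPM.

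The first of the higher genes, Pdk1, encodes a kinase that inactivates pyruvate dehydrogenase and so holds pyruvate back from the citric acid cycle. It was at 73.9, 102 and 94.8 CPM in 129S1/SvImJ and at 17.1 to 53.8 CPM elsewhere, with a median of 31.7. The log2 fold change was 1.45 (SE 0.10, adjusted p 1.47e-10, edgeR). C57BL/6J, at a mean of 52.1 CPM, and DBA/2J, at 50.4 CPM, were nearest, and with the difference from every strain required the adjusted p was 0.0358. Over all 36 alternatives the log2 fold change lay between 1.35 and 1.58.

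Mettl7a2 and Mettl7a3, neighbouring methyltransferase-like genes on chromosome 15, were nearly silent outside 129S1/SvImJ. Mettl7a2 was at 27.7, 28.0 and 29.5 CPM, against 0 to 5.35 CPM with a median of 0.204, and its log2 fold change was 6.61 (SE 0.30, adjusted p 2.94e-14, edgeR). CAST/EiJ alone among the others averaged more than 1 CPM, at 4.80 CPM. Mettl7a3 held 835 counts in the 3 libraries of 129S1/SvImJ and 7 in the other 24 together, a ratio of 805 after scaling to library size (95% counting interval 391 to 2001). The counts of Mettl7a2 were not whole in 24 libraries. Both genes summed came to 35.5, 36.6 and 38.6 CPM, against at most 5.44 CPM elsewhere. The related gene Mettl7a1 was at 238 CPM in 129S1/SvImJ and 290 CPM in the mean of the others and was not called (adjusted p 0.355, edgeR). Whether reads were divided differently between it and the other two in 129S1/SvImJ was not tested.

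Wdr72 came closest to presence against absence. Wdr72 encodes a WD-repeat protein needed for tooth enamel. It was at 4.12, 8.64 and 7.37 CPM in 129S1/SvImJ, from 661 counts, and 3 counts were found in the other 24 libraries together. The ratio after scaling to library size was 1486, with a 95% counting interval of 509 to 7207. Gdpd3, a lysophospholipase D, held 540 counts against 40 (ratio 91.1, interval 66.9 to 127), and Cox6b2, the testis form of a cytochrome c oxidase subunit, held 531 against 63 (ratio 56.9, interval 44.4 to 74.0). The processed pseudogene Gm8276 held 241 counts against 35 (ratio 46.4, interval 33.4 to 66.7), with values that were not whole in 13 libraries. These intervals cover counting error only, since reads copied by PCR are not independent molecules.

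Of the 19 genes, Cyp2b9 and Cyp2b13 were neighbours, as were Mettl7a2 and Mettl7a3, and none of the other 15 had another particular gene among those tested within 500 kb. No other tested gene lay within 500 kb of Wdr72.

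Gene groups with known roles were described next by how many members were called, beside the share of all tested genes called higher (10.5%) or lower (7.86%). The lists were put together with earlier results of these data known, so the counts are descriptions. Of 435 list genes tested, 1 lay above and 5 lay below all other libraries, beside the 0.67% and 0.539% of all tested genes.

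**Figure D3:**
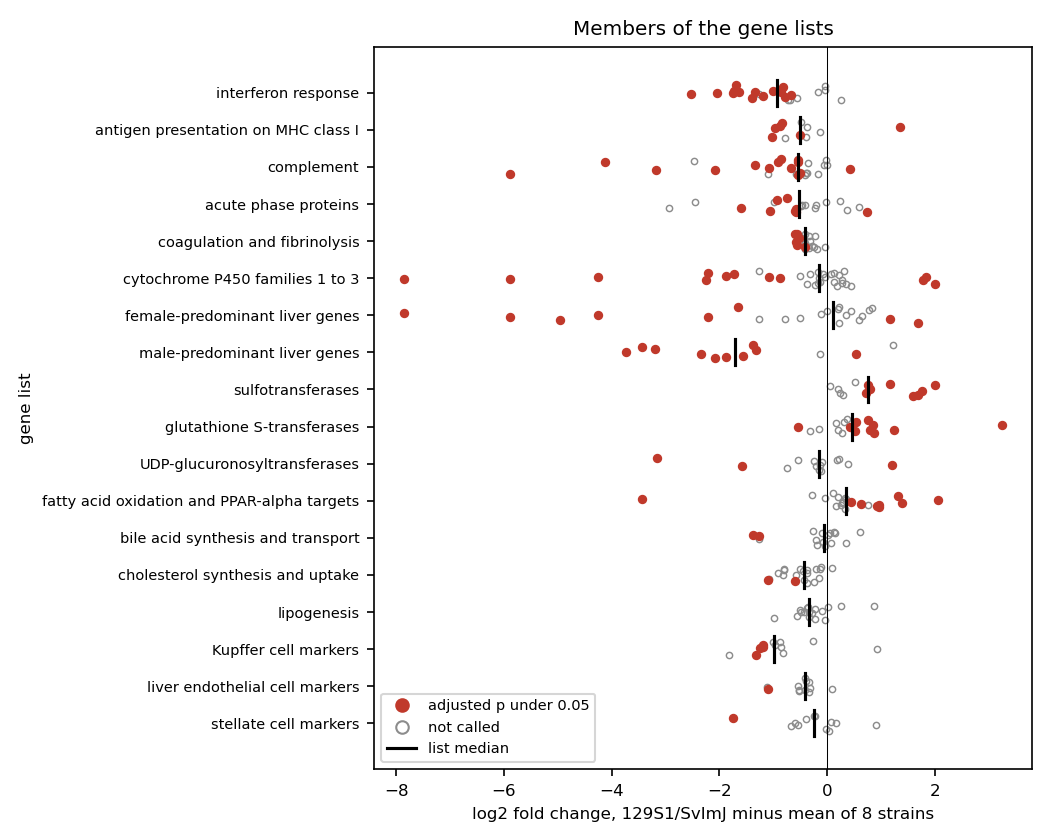
Log2 fold change of 129S1/SvImJ against the mean of the 8 other strains (x axis) for each tested member of 18 gene lists (y axis). Filled red points have an adjusted p under 0.05, open points do not, and the bar is the list's median, which is lowest for the male-predominant genes (-1.71) and highest for the sulfotransferases (0.76).

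Cytochromes P450 of families 1 to 3, which oxidize drugs and steroids, had 9 of 33 tested members lower and 3 higher, with a median log2 fold change of -0.15. Beside the Cyp2b genes, Cyp2c69 was at 40.3, 6.67 and 16.8 CPM, against 2.03 to 1650 CPM with a median of 356, with a log2 fold change of -4.25 (SE 0.97, adjusted p 0.00316, edgeR). Its 129S1/SvImJ mean of 21.2 ± 17.2 CPM (SD, n = 3) was below every other strain mean, the next being 194 CPM in NOD/ShiLtJ, but single libraries overlapped. Cyp2f2, a periportal P450 that activates naphthalene, was at 704, 849 and 1043 CPM, against 816 to 2797 CPM, with a log2 fold change of -0.87 (SE 0.21), a call lost without 129S1/SvImJ replicate 1.

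The 3 higher P450 genes were Cyp3a59, Cyp2c38 and Cyp2c39, and none of these was highest in 129S1/SvImJ in all libraries. Cyp3a59 was at 104, 111 and 78.5 CPM, against 1.10 to 106 CPM, with WSB/EiJ (1.31 CPM) and PWK/PhJ (2.11 CPM) nearly silent. Cyp2c39 was at 827, 917 and 935 CPM, against 5.50 to 1284 CPM, and its log2 fold change of 1.78 fell to 0.99 without C57BL/6J, where it was at 5.79 CPM. Cyp2c38 was at 167, 219 and 220.2 CPM, against 0.232 to 429 CPM, and its log2 fold change of 1.85 fell to 0.13 (adjusted p 0.522, edgeR) without CAST/EiJ and PWK/PhJ. The counts of all 3 were not whole in at least 24 libraries.

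Genes with a sex bias in mouse liver had lower members on both sides. All libraries came from females. Of 22 genes known as female-predominant, 6 were lower and 2 were higher, with a median of 0.10. Of 12 known as male-predominant, 9 were lower and 1 was higher, with a median of -1.71. The higher one, the glutathione S-transferase gene Gstp1 (0.54), lost its call in 23 of 36 alternatives, among them each fit without a 129S1/SvImJ library. The male-predominant count was 5 lower genes without 129S1/SvImJ replicate 2 and likewise without replicate 3.

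Among the female-predominant genes, A1bg, an immunoglobulin-like plasma protein, was at 19.5, 29.2 and 46.9 CPM, against 38.6 to 10574 CPM with a median of 544. Its log2 fold change was -4.95 (SE 1.07, adjusted p 0.00192, edgeR). The other strains scattered widely, from a mean of 172 CPM in NOD/ShiLtJ to 4985 CPM in WSB/EiJ. Among the male-predominant genes, Selenbp2, a selenium-binding protein gene, was at 2.51, 3.32 and 3.10 CPM, against 2.85 to 223 CPM, with a log2 fold change of -3.73 (SE 0.46, adjusted p 1.77e-06, edgeR). Only PWK/PhJ, at 3.77 CPM, had a similar mean. Hsd3b5, a steroid-reducing enzyme of the male liver, was at 0.279, 0.172 and 0.750 CPM, against 0.0460 to 33.5 CPM, with a log2 fold change of -3.19 (SE 0.76, adjusted p 0.00458, edgeR).

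Sulfotransferases, which attach sulfate to steroids, bile acids and drugs, had 8 of 13 members higher and none lower, with a median of 0.76, the highest list median. 129S1/SvImJ had the highest mean log2 level of this list among the 9 strains. On the plain scale it was the third: its summed level was 1822, 2155 and 1713 CPM, against 456 to 4014 CPM elsewhere. Sult1b1 was at 23.7, 22.3 and 22.8 CPM, against 3.30 to 28.3 CPM, with a log2 fold change of 0.79 (SE 0.13, adjusted p 0.000146, edgeR), and only NZO/HlLtJ had a higher mean (27.3 CPM). Sult3a1 was at 716, 831 and 673 CPM, against 18.7 to 1986 CPM, with a log2 fold change of 1.18 (SE 0.17). Its level was far above A/J (23.4 CPM) and C57BL/6J (70.9 CPM) and below CAST/EiJ (1825 CPM).

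The largest fold changes of the list rested on strains where the gene was nearly silent. Sult1e1, which inactivates oestrogens, was at 4.53, 5.49 and 5.64 CPM, against 0 to 136 CPM, and had a log2 fold change of 2.00. Its mean of 5.22 CPM was below the plain mean of the 8 strain means, 16.5 CPM, which WSB/EiJ (107 CPM) and NZO/HlLtJ (18.5 CPM) raised. The same reversal of means held for Sult2a7 (6.74 against 18.5 CPM) and Sult3a2 (164 against 176 CPM). Without CAST/EiJ and PWK/PhJ, 5 of the 13 were higher, and the calls of Sult1e1 (0.57), Sult2a7 (0.29) and Sult2a2 (0.25) were lost.

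**Figure D4:**
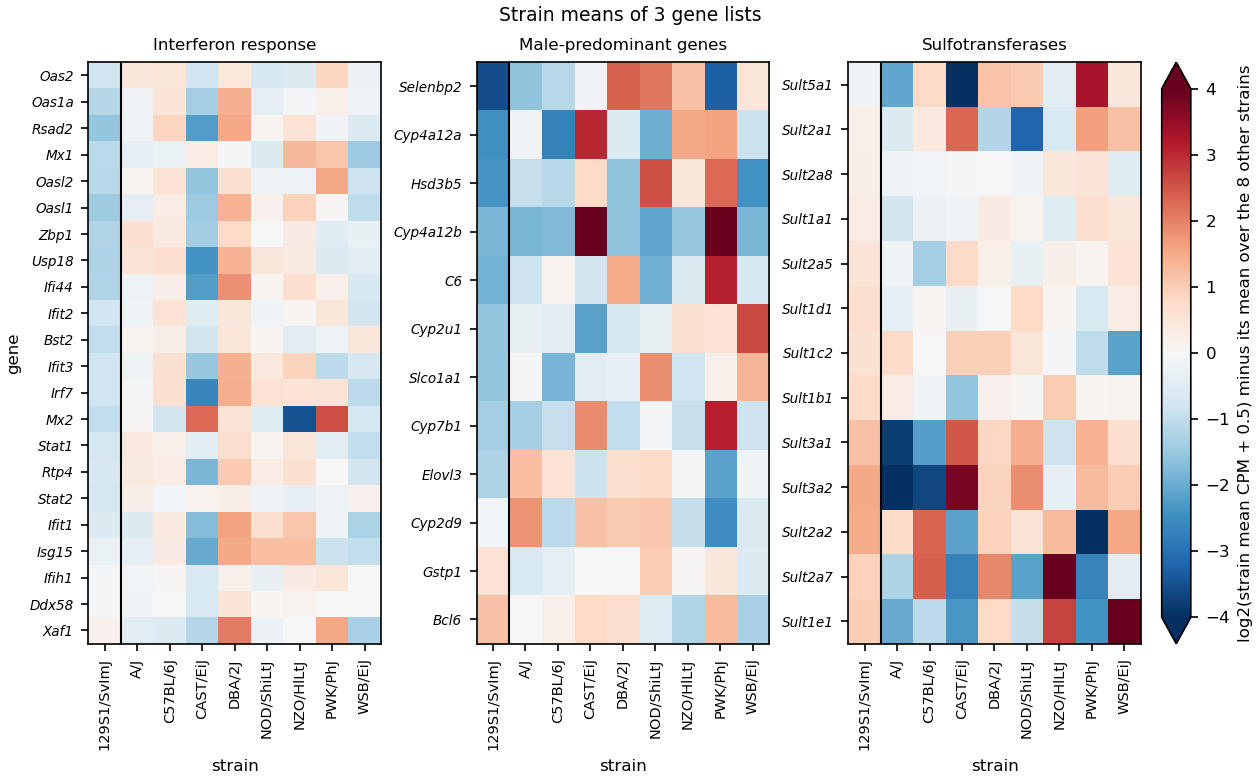
Strain means of the tested members of 3 gene lists (rows) in the 9 strains (columns), as log2(mean CPM + 0.5) minus its mean over the 8 other strains, with rows ordered by the fold change of 129S1/SvImJ. Blue is lower and red is higher, and values beyond 4 are drawn at the end of the scale; the 129S1/SvImJ column is blue for most interferon and male-predominant genes, CAST/EiJ is as blue for many interferon genes, and the sulfotransferase rows differ strongly among the other strains.

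Glutathione S-transferases, which detoxify reactive compounds, had 9 of 18 members higher and 1 lower, with a median of 0.47. Gstm1 was at 1433, 1830.0 and 1354 CPM, against 339.8 to 1672 CPM, with a log2 fold change of 1.24 (SE 0.17, adjusted p 1.21e-05, edgeR), and NOD/ShiLtJ had a similar mean of 1391 CPM. Gstm3 was at 65.8, 127 and 62.1 CPM, against 0.200 to 171 CPM, with a log2 fold change of 3.25 (SE 0.28). NOD/ShiLtJ was higher, at a mean of 136 CPM, and PWK/PhJ, NZO/HlLtJ and CAST/EiJ were at most 1.28 CPM. The counts of both genes were not whole in all 27 libraries. With 129S1/SvImJ replicate 2 left out, 4 members were higher, and with the Kupffer and endothelial marker covariates 5 were.

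Gclm and Gclc, the subunits of the enzyme that starts glutathione synthesis, were both higher, by log2 fold changes of 0.60 and 0.43, among 9 tested antioxidant genes of the Nrf2 pathway. Hmox1, a heme-degrading enzyme of the same list, was lower (-0.97), and with the marker covariates it was at -0.52. The calls of these 3 genes were lost without 129S1/SvImJ replicate 1 or 2. Of 14 UDP-glucuronosyltransferases, 1 was higher and 2 were lower. Ugt2b37 was at 1.74, 1.60 and 1.66 CPM, below the 2.62 to 46.8 CPM of all other libraries, with a log2 fold change of -3.16 (SE 0.60, adjusted p 0.000541, edgeR).

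Fatty acid oxidation genes and targets of PPAR-alpha, the receptor that switches on fat burning in fasting, had 8 of 22 members higher and 1 lower, with a median of 0.35. Acadm, the medium-chain acyl-CoA dehydrogenase of mitochondrial beta-oxidation, was at 409, 371 and 371 CPM, against 133 to 276 CPM with a median of 195. It lay above all 24 other libraries, with a log2 fold change of 0.96 (SE 0.16, adjusted p 0.000135, edgeR). Ppara itself was at 97.7, 59.7 and 64.4 CPM, against 29.7 to 100.4 CPM, with a log2 fold change of 0.63 (SE 0.19, adjusted p 0.0246, edgeR). Pdk4, a fasting-induced relative of Pdk1, was at 24.5, 19.3 and 14.1 CPM, against 1.63 to 28.4 CPM, with a log2 fold change of 1.39 (SE 0.28).

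Fgf21, a fasting hormone of the liver, was called higher (2.07, adjusted p 0.00056, edgeR), but its 3 values of 4.78, 0.658 and 5.38 CPM did not lie together. The lower member was Cyp4a12a, a male-predominant fatty acid hydroxylase, at 0.434, 0.200 and 0.163 CPM, against 0 to 72.9 CPM, a call lost without any 1 of these libraries. Cyp4a14 was called higher (1.32), but fell to 0.31 (adjusted p 0.642, edgeR) without CAST/EiJ and PWK/PhJ, and its call was also lost without 129S1/SvImJ replicate 2 or 3. Without 129S1/SvImJ replicate 1, 5 members of the list were higher. None of 17 lipogenesis genes was called in either direction; their median was -0.33.

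Interferon-stimulated genes, which are induced when cells sense viral nucleic acid or receive interferon, had 14 of 22 members lower and none higher, with a median of -0.93. Their summed level was 197, 192 and 206.2 CPM in 129S1/SvImJ, below the 206.5 to 667 CPM of all other libraries, by a small margin at the nearest. Rsad2, which encodes the antiviral enzyme viperin, was at 2.61, 1.32 and 1.79 CPM, against 0.887 to 28.5 CPM with a median of 6.71. Its log2 fold change was -1.74 (SE 0.31, adjusted p 0.000272, edgeR). Oasl1 was at 1.71, 1.77 and 1.56 CPM, against 1.15 to 17.4 CPM, with a log2 fold change of -1.64 (SE 0.24, adjusted p 2.45e-05, edgeR).

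Low interferon gene levels were not particular to 129S1/SvImJ. No member met the test of a difference from each strain, and CAST/EiJ had the lowest mean log2 level of the list, with 129S1/SvImJ next. Rsad2 averaged 1.01 ± 0.197 CPM in CAST/EiJ and 1.90 ± 0.652 CPM in 129S1/SvImJ (SD, n = 3 each), whereas DBA/2J, the highest strain, averaged 20.4 ± 7.52 CPM. Oas2 and Oas1a had the largest fitted changes (-2.53 and -2.05) at very low levels, with at most 0.130 and 0.554 CPM in any 129S1/SvImJ library, and their calls were lost without replicate 1 or 2.

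The interferon count was smaller without single 129S1/SvImJ libraries and with markers of other cells as covariates. It was 7, 4 and 9 without 129S1/SvImJ replicate 1, 2 and 3 in turn. With the Kupffer and endothelial marker means as covariates it was 6, and Rsad2 was still lower (-1.43, adjusted p 0.00296, edgeR). Oas1a (-1.49) and Oas2 (-1.79) stayed negative in that fit but were not called. The cause of the smaller count was not tested. As given above, 4 of 12 Kupffer markers were lower in 129S1/SvImJ, and none was without replicate 1, replicate 2 or C57BL/6J.

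**Figure D5:**
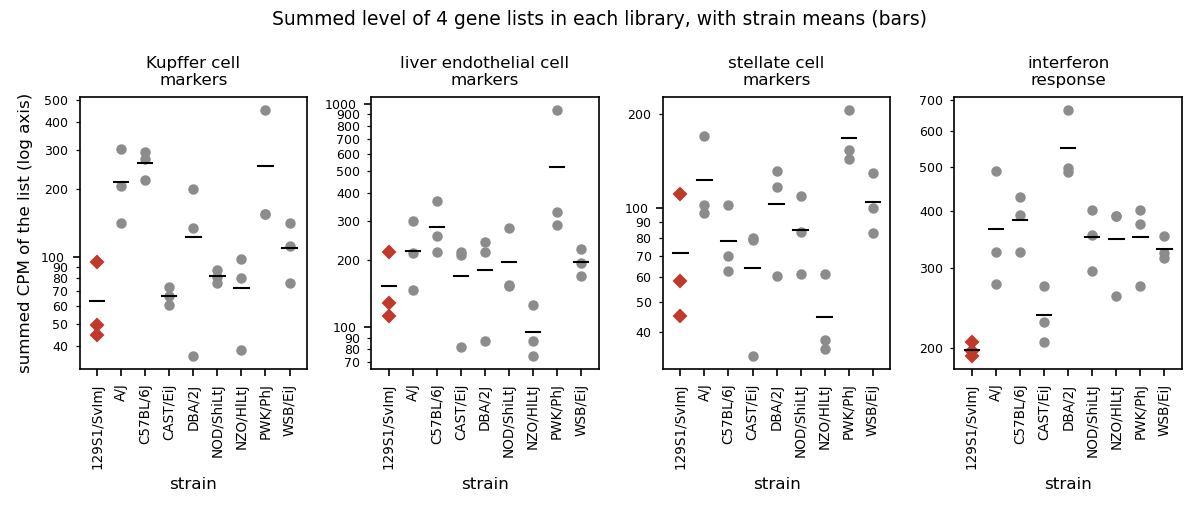
Summed CPM (y axis, log scale) of 4 gene lists in each library, by strain (x axis), with 129S1/SvImJ as red diamonds, the other strains as grey circles and bars at the strain means. Kupffer, endothelial and stellate marker sums of 129S1/SvImJ lie within the range of the others, and its interferon sums of 192 to 206.2 CPM lie below all others.

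Interferon-stimulated genes are switched on through a promoter element, the ISRE, built of repeated GAAA blocks. A motif of 2 GAAA blocks with 2 bases of any kind between them was searched on both strands and was found in the windows of 9 of the 15 list genes that the RefSeq table holds, against 3.99% of all 27025 genes in that table. Among genes called lower, 5 of 9 had it, and among those not called, 4 of 6. Windows of a called gene with 1 match and of a called gene with a pair of overlapping matches are shown, with the matches in capitals. They are chr12:26456403-26456702 and chr5:120907476-120907775 of GRCm38.p6, both on the minus strand.
Rsad2: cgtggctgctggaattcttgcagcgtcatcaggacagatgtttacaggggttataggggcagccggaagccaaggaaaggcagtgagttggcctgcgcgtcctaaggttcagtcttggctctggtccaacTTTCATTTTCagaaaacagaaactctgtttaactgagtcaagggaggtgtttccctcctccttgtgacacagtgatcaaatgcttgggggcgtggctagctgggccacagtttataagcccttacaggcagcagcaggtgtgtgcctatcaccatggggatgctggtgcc
Oas1a: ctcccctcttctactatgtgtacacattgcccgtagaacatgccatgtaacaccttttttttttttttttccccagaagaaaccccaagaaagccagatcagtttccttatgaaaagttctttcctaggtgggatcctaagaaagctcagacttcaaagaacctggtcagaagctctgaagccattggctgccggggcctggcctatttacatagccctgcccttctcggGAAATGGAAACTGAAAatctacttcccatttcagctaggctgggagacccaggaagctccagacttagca

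Genes for antigen presentation on MHC class I had 5 of 11 members lower and 1 higher, with a median of -0.51. Tap2, a peptide transporter subunit, was at 26.0, 25.1 and 29.5 CPM, against 26.6 to 103 CPM, with a log2 fold change of -1.02 (SE 0.22, adjusted p 0.00167, edgeR). The immunoproteasome subunits Psmb8 (-0.96) and Psmb9 (-0.84) and the class I transactivator Nlrc5 (-0.87) were also lower, with the Psmb8 call lost without replicate 1 or 2 and the Nlrc5 call without any 1 of the 3 libraries of 129S1/SvImJ. H2-K1, a class I heavy chain, went the other way, at 843, 823 and 1232 CPM against 135 to 2248 CPM (log2 fold change 1.36). H2 genes differ in sequence between strains and share reads, and the H2-K1 counts were not whole in all 27 libraries, so its values are uncertain. The lower count was 1, 1 and 3 without 129S1/SvImJ replicate 1, 2 and 3, 2 with the marker covariates and 9 without CAST/EiJ and PWK/PhJ.

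Complement genes, whose plasma proteins mark and lyse microbes, had 13 of 25 members lower and 1 higher, with a median of -0.54. C1s2 was at 0.124, 0.143 and 0.0978 CPM, against 0.0510 to 53.1 CPM, and C1rb was at 0.186, 0.114 and 0.163 CPM, against 0 to 27.7 CPM. Their near absence was shared with C57BL/6J and NZO/HlLtJ, with C1s2 means of 0.168 and 0.117 CPM, so neither was particular to 129S1/SvImJ. C1s2, C1rb and C4a are near copies of C1s1, C1ra and C4b, and their counts were not whole in 24 to 27 libraries.

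The terminal components C9 and C8a, which form the membrane pore, had the lowest mean of the 9 strains in 129S1/SvImJ. C9 was at 96.1, 88.1 and 126 CPM, against 92.6 to 502 CPM with a median of 258, with a log2 fold change of -1.33 (SE 0.21, adjusted p 7.09e-05, edgeR). C2, a protease of the classical pathway, was at 67.9, 83.2 and 83.9 CPM, just below the 87.5 to 222 CPM of all other libraries (log2 fold change -0.86, SE 0.18). C3, the central component, was at 11764, 11909 and 13585 CPM, against 9601 to 25668 CPM, and was not called (-0.35, adjusted p 0.2, edgeR). Hc, which encodes C5, was called higher (0.43, adjusted p 0.0492, edgeR), a call lost in 25 of 36 alternatives.

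Acute phase proteins, made by hepatocytes in inflammation, had 7 of 20 members lower and 1 higher, with a median of -0.53. The higher one, Orm3 (0.74), had a mean of 23.5 CPM, below the plain mean of the 8 strain means (23.6 CPM), and its call was lost without CAST/EiJ and PWK/PhJ and without 129S1/SvImJ replicate 2 or 3. Hp (haptoglobin) was at 1646, 1124 and 2045 CPM, against 1605 to 10918 CPM, with a log2 fold change of -1.06 (SE 0.28, adjusted p 0.0102, edgeR), a call lost without 129S1/SvImJ replicate 1 or 2. Hpx (hemopexin, the carrier of free heme) was at 2464, 2392 and 3485 CPM, against 2483 to 15147 CPM, with a log2 fold change of -0.93 (SE 0.20, adjusted p 0.00218, edgeR). Coagulation genes had 6 of 20 members lower and none higher, with a median of -0.40, and all 20 fitted fold changes were negative. The changes were small, from -0.41 for Serpind1 to -0.59 for Fgg, whose call was lost without any 1 of the 3 libraries of 129S1/SvImJ.

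Both counts moved with the settings. The acute phase count was 1 without 129S1/SvImJ replicate 1, 3 without replicate 2, 4 with the marker covariates, 12 with DESeq2 and 12 without CAST/EiJ and PWK/PhJ. The coagulation count was 1, 1 and 3 without replicate 1, 2 and 3, 1 with the covariates, 11 with DESeq2 and 11 without CAST/EiJ and PWK/PhJ.

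Other metabolic lists held few called genes. Of 16 bile acid genes, Cyp8b1 (-1.27), which sets the share of cholic acid, and Cyp7b1 (-1.38) were lower and none was higher. Cyp8b1 was at 167, 127 and 137 CPM, against 106 to 922 CPM, and Cyp7b1 fell to -0.54 (adjusted p 0.107, edgeR) without CAST/EiJ and PWK/PhJ. In cholesterol synthesis, Hmgcs1 was lower (-1.10), a call lost without any 1 of the 3 libraries of 129S1/SvImJ. Of 13 glucose genes Foxo1 was higher (0.58), of 15 urea cycle and amino acid genes Slc25a15 was lower (-0.55), and of 19 clock genes Hlf was higher (0.38). The Hlf call was lost in 12 of 36 alternatives, among them each fit without a 129S1/SvImJ library. The Foxo1 call was lost without 129S1/SvImJ replicate 3 and with the marker covariates, and the Slc25a15 call without replicate 1 or 3.

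Zonation genes, which differ along the liver lobule, had 1 of 11 pericentral members lower (Slc1a2, -0.91) and 1 of 10 periportal members lower (Cyp2f2). None of 15 tested immediate early genes and none of 24 tested enzymes of histone and DNA methylation was called by edgeR at an adjusted p under 0.05. Their median log2 fold changes were 0.17 and -0.05.

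Markers of other cell types had mostly negative fold changes. These were 11 of 12 Kupffer markers (median -0.98), 11 of 12 endothelial markers (-0.41), 8 of 12 stellate cell markers (-0.23), 5 of 5 tested neutrophil and monocyte markers (-0.88) and 3 of 3 tested lymphocyte markers (-1.13), beside 6954 of the 14482 genes. Clec4g (-1.09) was the 1 of 12 endothelial markers called lower, Col3a1 (-1.75) the 1 of 12 stellate cell markers and Spp1 (-1.34) the 1 of 2 tested cholangiocyte markers, and none was higher. The Clec4g call was lost in 15 of 36 alternatives, among them the fits without 129S1/SvImJ replicate 1 or 2 and without C57BL/6J. None of 5 tested neutrophil and monocyte markers and none of 3 tested lymphocyte markers was called. The called Kupffer markers were C1qa (-1.32), Cd5l (-1.24), C1qb (-1.19) and Vsig4 (-1.19), whereas Clec4f (adjusted p 0.092) and Adgre1 (adjusted p 0.187, edgeR) were not. The lower count was 7 without 129S1/SvImJ replicate 3, 8 without DBA/2J replicate 4, 7 with DESeq2 and 9 without a filter on low counts, and 1 marker was called higher without C57BL/6J. The erythroid gene Hbb-bt, a beta-globin of one haplotype, had 0 counts in 129S1/SvImJ, at least 6.35-fold lower than the mean of the 8 strains, with 3 counts per library as the floor. Its call was lost without any 1 of the 3 libraries of 129S1/SvImJ.

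Genes for which 129 strains are known to carry variant alleles were also examined. Abcc6, an efflux transporter of liver and kidney whose loss leads to tissue calcification, was at 106, 104 and 135 CPM, against 114 to 485 CPM with a median of 252. It was lower with a log2 fold change of -1.26 (SE 0.20, adjusted p 5.34e-05, edgeR), and DBA/2J had the nearest mean, 155 CPM. Ahr, the receptor for dioxin-like compounds, was at 19.9, 30.0 and 25.0 CPM and was not called (0.17, adjusted p 0.46). Slc11a1, a metal transporter of macrophages, was at 0.713 to 1.52 CPM (-0.86, adjusted p 0.0794), and Casp4, an inflammatory caspase, reached at most 0.172 CPM (-1.48, adjusted p 0.295), neither passing in edgeR. Disc1, the fifth of these genes, was too low to be tested.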

How the data were processed

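The authors deposited a table of estimated counts (expected counts) per Ensembl gene for 27 libraries, with 43346 genes. Of its values, 11.1% were not whole (tolerance 1e-06). The submitters' processing notes name FastQC 0.11.5, DESeq2 and the builds GRCm38 and mm10. The aligner and the counting program are not given in the sources used here, nor whether reads of each strain were aligned to its own genome, which can change the counts of divergent genes. Per the labels' protocols, RNA was extracted with a column kit and a DNase digest, polyadenylated RNA was selected, and the libraries do not mark strand.

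Whole-number rounding of the counts came before the tests, run by edgeR 4.0.16 (with limma 3.58.1, in R 4.3.3). The filterByExpr filter by strain left 14482 genes, which were scaled by TMM and fitted with glmQLFit over all 27 libraries with strain as the only factor. The contrast was the 129S1/SvImJ coefficient minus the mean of the 8 others. Particular genes were tested by the largest p of the 8 glmQLFTest comparisons with one sign. P-values were adjusted by Benjamini and Hochberg over all genes. CPM values are scaled to TMM-adjusted library sizes. Pairs of 129S1/SvImJ libraries differed by 43.7 to 63.7 times the sampling noise (chi-square per degree of freedom), so none was treated as a repeated deposit of the same library. This does not show that they came from separate animals.

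Symbols, coordinates and types came from GENCODE M21 (GRCm38), and promoter windows from RefSeq (GRCm38.p6). Named genes were the particular genes of at least 10 CPM, up to 3 called genes per direction in each list with the largest fold change, and the known 129 alleles. The 13 other particular genes are named because the set is given whole, and further list members and neighbours were chosen after their values were seen. The 32 lists and the comparison itself were chosen with earlier results of these data known. Alternatives were DESeq2 1.42.0, median-of-ratios size factors, no filter, a filter at an average of 10 counts, a replicate block, strains left out, marker covariates, removal of a GC trend (GC content was known for 99.1% of tested genes) and each library left out in turn. The test scripts were tested on simulated data. An item of the gene lists is not reported here.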

Additional observations from a re-analysis of the deposited data

How the results depend on the processing

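None of 2986 recomputed fold changes of 83 named genes reversed, and 177 lost their call: 66 when a 129S1/SvImJ library was left out, 67 when another library was and 44 under other alternatives. Most of these genes were named because they were called in these same data, so a reversal was unlikely from the start. 5 of the 19 particular genes, BC029722, Cyp2b9, Jmjd7, Plekhb2 and Sugct, were kept in each of the 9 other settings and each of the 27 fits without a library. DESeq2 called 3100 genes and 25 particular genes, 18 of them shared. Without a filter the median log2 fold change over all genes was -0.11 and 25 genes were particular, the 19 included.

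With marker covariates the calls were 1739, with 701 lower and 301 at least 2-fold lower, and 1490 against A/J, 652 against C57BL/6J and 2931 against PWK/PhJ; 7 genes were particular, 1 higher and 6 lower. Without CAST/EiJ and PWK/PhJ, 45 were particular (17 higher and 28 lower), and 3 strains had more called genes than 129S1/SvImJ, against 5 of 8. CAST/EiJ (5488 called) and PWK/PhJ (4950 called) were among those 5, so these strain counts cover different strains. The cause of the other shifts was not tested. The replicate numbers did not pair the libraries: deviations of same-numbered libraries correlated at 0.01 on average (-0.293 to 0.275), and 7 of 27 libraries correlated best with their own number. With the number as a block 2232 genes were called, 2359 against CAST/EiJ, and 12 were particular (1 higher, Gdpd3). The number 5 was used only in CAST/EiJ, so the block fitted that library by itself.

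Leaving out each library in turn gave 1444 to 3129 called genes, 899 to 1846 higher and 545 to 1322 lower, with 460 to 570 and 293 to 531 at least 2-fold. Particular genes were 11 to 18, with 4 to 7 higher and 7 to 12 lower. Calls ran from 2110 to 4543 against A/J, 1492 to 4279 against C57BL/6J, 2925 to 3881 against CAST/EiJ, 1269 to 2933 against DBA/2J, 951 to 1575 against NOD/ShiLtJ, 972 to 1558 against NZO/HlLtJ, 3399 to 4703 against PWK/PhJ and 2612 to 4129 against WSB/EiJ. Strains with more called genes than 129S1/SvImJ were 4 to 8, and with more particular genes 3 to 7. The calls moved over 1.5-fold without A/J replicate 3 (2110), C57BL/6J replicate 2 (1815) or 4 (1492), DBA/2J replicate 2 (1346) or 3 (1269), and without 129S1/SvImJ replicate 1 (1848 for C57BL/6J, 1317 for DBA/2J) or 2 (1744 for C57BL/6J). Particular higher genes were 4 without any 1 of the 129S1/SvImJ or CAST/EiJ libraries, DBA/2J replicate 2 or 3, or NZO/HlLtJ replicate 1.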
